A study of Mus musculus with 16 samples.

Results

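The genes described here are 45 members of the transforming growth factor beta (TGF-beta) and bone morphogenetic protein (BMP) pathway, chosen by gene symbol from the platform annotation of the array, out of 20738 genes named on it. They were measured in lung homogenate of mouse pups at postnatal day 3 on one-colour Agilent arrays, 1 array a sample. Pups labelled Fgf10+/-, which are heterozygous for a lost Fgf10 allele (fibroblast growth factor 10, a mesenchymal signal to the lung epithelium), breathed 85% oxygen (hyperoxia) from day 0 to day 3 or stayed in normoxia, and so did wild-type pups. Each of the 4 groups held 4 arrays, which gives 16 in all: Fgf10+/- in hyperoxia, Fgf10+/- in normoxia, wild type in hyperoxia and wild type in normoxia. The labels name no strain, give no litter and do not say how many animals went into a homogenate, so the p-values reflect no more than the spread among the arrays.

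TGF-beta ligands are secreted in a latent complex that latent TGF-beta binding proteins anchor in the matrix. Once released, TGF-beta, activin and BMP dimers bring a type II receptor kinase together with a type I receptor kinase, which phosphorylates SMAD proteins. TGF-beta and activin act mainly through SMAD2 and SMAD3, BMPs through SMAD1, SMAD5 and SMAD9; both arms share SMAD4 and are restrained by SMAD6 and SMAD7. In the developing lung, BMP signals pattern the distal epithelium and TGF-beta signals shape the mesenchyme, the matrix and the walls between the air spaces.

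Values are log2 intensities as the authors deposited them, in which every array had a median of 4.50. The 45 genes were represented by 91 array features, all above the filter on dim features, and 18 genes had more than 1 feature; the brightest one stands for the gene. Group means of the genes spanned 4.32 to 14.57, and the SD within a group of 4 arrays had a median of 0.19. The lung label was checked against alveolar epithelial markers, whose mean over 8 genes was 12.49 to 13.22 in the 16 arrays. The lung epithelial transcription factor Nkx2-1 averaged 10.81 ± 0.22 in wild-type normoxia, and Sftpc, a surfactant gene, was close to the maximum of the arrays throughout. Fgf10 itself averaged 8.28 ± 0.32 in Fgf10+/- and 7.80 ± 0.39 in wild type in normoxia (SD, n = 4 each; adjusted p = 0.334), and 7.64 ± 0.26 in Fgf10+/- and 7.85 ± 0.18 in wild type in hyperoxia (adjusted p = 0.835). Whether its feature lies in the inactivated part of the gene is not stated by the labels, so it does not check the genotype labels. Some arrays stood apart from their group in a marker list. Wild-type normoxia replicate 4 had a mean of 8.18 over 8 skeletal muscle markers, against 4.67 to 4.95 in the other 3 of its group, and 6.92 over 5 brown fat markers, against 5.48 to 5.56. Fgf10+/- hyperoxia replicate 4 had a mean of 11.68 over 5 cardiac muscle markers, against 9.83 to 10.40 in the other 3 of its group, and 9.50 over 5 mesothelial markers, against 7.71 to 8.57. Fgf10+/- normoxia replicate 4 had 8.24 over 7 macrophage markers, against 9.15 to 9.41. Replicate 3 of that group had 10.90 over 6 airway epithelial markers, against 10.12 to 10.40, and 7.82 over 5 mesothelial markers, against 8.74 to 9.52. The mean over 4 erythroid markers ran from 10.53 to 13.08 in the same group, with replicate 3 the highest. Calls that change without one of these arrays are named with the gene below.

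A gene was called changed at an adjusted p under 0.05, from a limma model of all 16 arrays with Benjamini-Hochberg adjustment over 20166 genes. In Fgf10+/- lungs, 8 of the 45 pathway genes rose in hyperoxia and 11 fell, where 13.0% of all genes tested were called higher and 10.7% lower. In wild-type lungs 4 rose and 12 fell, where 10.3% of all genes were called higher and 8.75% lower. Called in either direction, that is 42.2% of the pathway genes in Fgf10+/- lungs, where the share of all genes was 23.8%, and 35.6% in wild-type lungs, where it was 19.1%. The members were chosen with earlier results of these data known, so their shares are not independent of the data. In 44 of the 45 members every group mean was above the array median. The genes tested had only to pass the 25th percentile of an array in at least 4 arrays. The part of brightness in these shares was not tested. At an unadjusted p under 0.05 it was 23 genes in Fgf10+/- (34.2% of all genes) and 21 in wild type (31.1%). The 4 hyperoxia arrays did not overlap with the 4 normoxia arrays in 18 of the pathway genes in Fgf10+/- (24.9% of all genes) and in 17 in wild type (24.8%). The median difference over the 45 genes was -0.055 in Fgf10+/- and -0.068 in wild type, and 0.034 and 0.026 over all genes tested. Lung homogenate mixes cell types, and in such bulk samples fewer cells of a type and less RNA per cell cannot be told apart.

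The calls in the 2 genotypes overlapped in 13 genes, and none of them went opposite ways. Higher in both were the BMP receptors Bmpr1b and Bmpr2, the signal transducer Smad3 and the target Ctgf, while 7.64% of all genes tested were called higher in both. Lower in both were Tgfb2, Tgfb3, Ltbp3, Bmp1, Bmpr1a, Smad1, Smad2, Smad7 and Id3, while 6.6% of all genes were. These 13 make up 13 of the 19 calls in Fgf10+/- lungs and 13 of the 16 in wild-type lungs. Called in Fgf10+/- lungs alone were Bmp2, Bmp3, Eng and Inhbb, which rose, and Bmp5 and Acvr2a, which fell; called in wild-type lungs alone were Tgfbi, Bmp4 and Smad9, which fell. A test of the genotype by oxygen interaction in limma called none of the 45 genes (0.0% of all genes; 2 of the 45 had an unadjusted p under 0.05), so these 9 are not shown to respond differently. The other 23 genes passed in neither genotype.

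**Figure D1:**
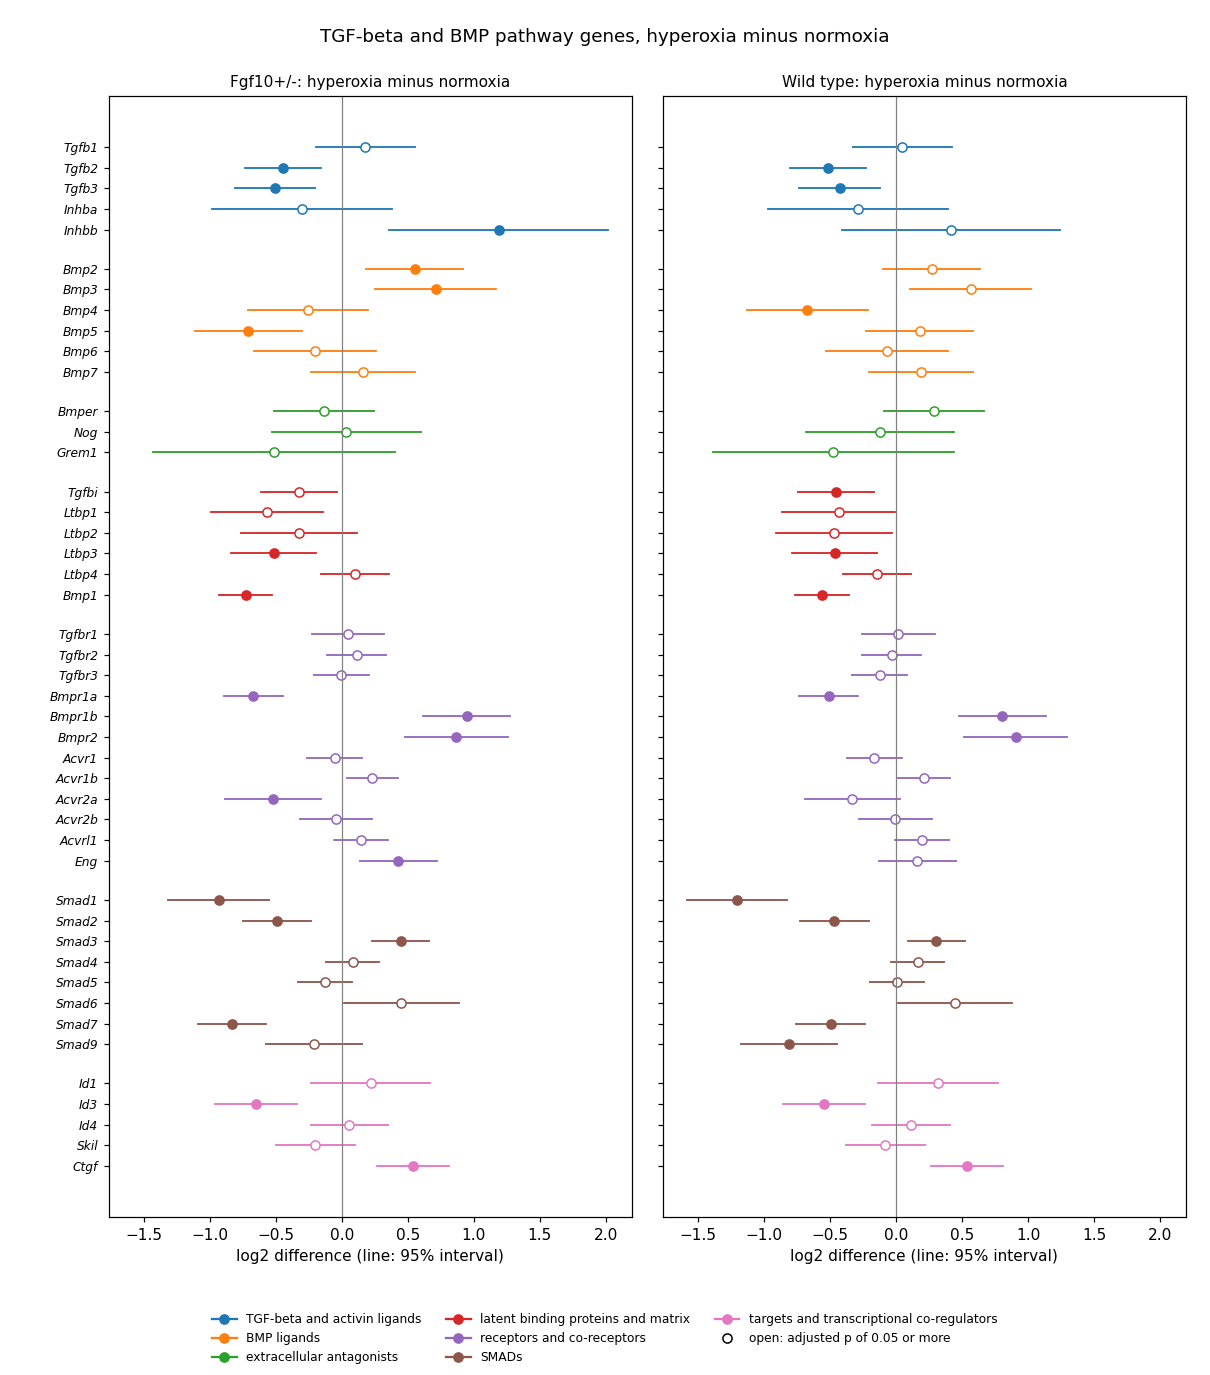
Log2 difference of hyperoxia minus normoxia for each of the 45 pathway genes, grouped by role, in Fgf10+/- lungs (left) and wild-type lungs (right); points are differences of group means of 4 arrays, lines their 95% intervals, and filled points have an adjusted p under 0.05. Smad1, Bmp1 and Smad7 lie left of 0 and Bmpr1b and Bmpr2 right of it in both panels, and Tgfb1, Tgfbr1 and Smad4 lie close to 0 in both.

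Some of these counts rest on single arrays. The 8 higher calls in Fgf10+/- lungs became 5 without hyperoxia replicate 2, 3 or 4 or normoxia replicate 2, and the 11 lower calls became 7 without hyperoxia replicate 1 or normoxia replicate 4. The 12 lower calls in wild-type lungs became 7 without hyperoxia replicate 2 or without normoxia replicate 4, the array with the muscle markers. Of the 19 calls in Fgf10+/- lungs, 10 held in all 10 alternative analyses and with each of the 8 arrays left out in turn: Bmp1, Smad7, Bmpr1a, Bmpr1b, Bmpr2, Id3, Smad3, Ctgf, Smad2 and Bmp5. Of the 16 in wild-type lungs, 9 did: Smad1, Bmpr1b, Bmpr2, Bmpr1a, Smad9, Ctgf, Smad7, Tgfb2 and Smad2.

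Promoter windows of 300 bases, from 250 before to 50 after the RefSeq start (GRCm38.p6), were used for 8 of the 13 genes called the same way in both genotypes. No window was used for Tgfb3, Bmp1, Smad2, Smad7 or Ctgf, so the motif counts, that of the palindrome included, do not cover these genes. Windows on 1 chromosome were left out whatever they held, while the percentages of all windows include them. The windows used were searched on both strands for the SMAD box CAGAC, its palindromic form GTCTAGAC and the GC-rich BMP motif GGCGCC. None of the 3 motifs contains another. The SMAD box was in the windows of 3 of 5 genes that fell and 1 of 3 that rose, and 49.6% of all RefSeq promoter windows of the mouse hold it. The GC-rich motif was in 1 of 5 and 1 of 3, and 11.9% of all windows hold it. The palindrome was in none of the windows used here, and 0.213% of all windows hold it. A gene counts if any of its windows holds the motif, while the percentages count windows. Counted by window, the SMAD box was in 5 of the 10 used here and the GC-rich motif in 2. Below are the windows of 2 genes that fell with a SMAD box (Tgfb2, chr1:186705940-186706239, minus strand, and Id3, chr4:136143572-136143871, plus strand) and of the 2 BMP receptors with the GC-rich motif, of which one fell (Bmpr1a, chr14:34502497-34502796, minus strand) and one rose (Bmpr2, chr1:59764029-59764328, plus strand). They are examples, and no link between a motif and a direction was tested. Bmpr1b, which rose, also holds a SMAD box, in windows not printed here. Capitals mark the motif in either orientation.
Tgfb2: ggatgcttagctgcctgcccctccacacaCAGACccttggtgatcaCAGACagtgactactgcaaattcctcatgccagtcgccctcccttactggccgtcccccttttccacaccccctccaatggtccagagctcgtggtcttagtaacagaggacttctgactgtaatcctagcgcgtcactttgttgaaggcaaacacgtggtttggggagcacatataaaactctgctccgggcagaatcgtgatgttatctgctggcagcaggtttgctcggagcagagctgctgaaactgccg
Id3: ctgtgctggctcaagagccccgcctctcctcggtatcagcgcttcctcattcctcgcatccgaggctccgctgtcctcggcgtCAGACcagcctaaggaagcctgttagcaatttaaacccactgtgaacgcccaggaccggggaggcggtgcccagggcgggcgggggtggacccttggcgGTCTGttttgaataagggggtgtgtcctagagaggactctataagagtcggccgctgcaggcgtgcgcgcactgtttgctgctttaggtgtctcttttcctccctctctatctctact
Bmpr1a: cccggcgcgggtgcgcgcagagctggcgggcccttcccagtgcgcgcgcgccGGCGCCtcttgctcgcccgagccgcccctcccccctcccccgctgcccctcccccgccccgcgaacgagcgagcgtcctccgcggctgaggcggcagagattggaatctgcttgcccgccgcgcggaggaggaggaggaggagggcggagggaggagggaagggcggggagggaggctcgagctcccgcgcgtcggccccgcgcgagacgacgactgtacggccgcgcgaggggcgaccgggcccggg
Bmpr2: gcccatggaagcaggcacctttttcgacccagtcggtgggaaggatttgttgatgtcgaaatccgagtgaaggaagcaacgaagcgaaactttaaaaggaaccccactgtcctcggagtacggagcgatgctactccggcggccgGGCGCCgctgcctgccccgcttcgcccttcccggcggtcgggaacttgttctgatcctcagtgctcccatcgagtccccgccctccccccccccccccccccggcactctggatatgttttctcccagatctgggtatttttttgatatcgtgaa
Tgfb2 and Id3 hold 2 SMAD boxes each, and each receptor window holds 1 GC-rich motif. A match describes the letters of a window and says nothing about binding there.

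Among the ligands of the TGF-beta and activin arm, Tgfb2 and Tgfb3 fell in both genotypes, and Tgfb1 passed in neither. Below, the 4 values of a group stand in the order of replicates 1 to 4. Tgfb2, a ligand expressed in lung epithelium and mesenchyme, had log2 intensities of 10.75, 11.10, 10.87 and 11.30 in Fgf10+/- hyperoxia, against 11.32, 11.49, 11.34 and 11.65 in Fgf10+/- normoxia. In wild-type lungs they were 10.63, 10.62, 10.59 and 10.69 in hyperoxia, against 11.07, 11.25, 10.90 and 11.38 in normoxia. All hyperoxia arrays lay below all normoxia arrays of their genotype, by a small margin in Fgf10+/-. Tgfb2 was 1.36-fold lower in Fgf10+/- hyperoxia (log2 difference -0.45, SE 0.13, adjusted p = 0.0247) and 1.43-fold lower in wild type (-0.52, SE 0.13, adjusted p = 0.0139). Leaving out hyperoxia replicate 1 or 3 or normoxia replicate 2 or 4 put the adjusted p of Tgfb2 in Fgf10+/- lungs between 0.0582 and 0.0792. A fit to only the groups compared put it at 0.0808. Both of its 2 features were called lower in both genotypes.

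Tgfb3, a ligand needed for normal lung development in mice, had 10.56, 10.92, 10.85 and 11.12 in Fgf10+/- hyperoxia, against 11.36, 11.37, 11.23 and 11.52 in Fgf10+/- normoxia. In wild-type lungs it had 10.81, 10.70, 10.33 and 10.75 in hyperoxia, against 10.90, 11.21, 10.91 and 11.27 in normoxia. The groups did not overlap in either genotype, though in wild type the gap between hyperoxia replicate 1 and normoxia replicate 1 was small. The log2 differences were -0.51 ± 0.14 (SE) in Fgf10+/- (adjusted p = 0.0176) and -0.43 ± 0.14 (SE) in wild type (adjusted p = 0.0483). All 10 features of Tgfb3 were lower in hyperoxia in both genotypes. When features were tested one by one, 1 of the 10 was called in Fgf10+/- and 0 in wild type. The feature that stands for the gene had the largest fall of the 10 in both. The wild-type call was lost in 4 of 10 alternatives and without any one of the 4 hyperoxia arrays or of normoxia replicates 2 and 4 (adjusted p between 0.0507 and 0.146), and the Fgf10+/- call without hyperoxia replicate 1 (0.0585) or normoxia replicate 4 (0.0543) and with the mean of all features (0.066).

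Tgfb1, the ligand best known for inducing matrix genes, had 8.01, 7.87, 7.69 and 8.14 in Fgf10+/- hyperoxia, against 7.88, 7.62, 7.90 and 7.60 in Fgf10+/- normoxia. In wild-type lungs Tgfb1 had 8.01, 7.57, 7.78 and 8.10 in hyperoxia, against 7.81, 8.31, 7.72 and 7.43 in normoxia. The groups overlapped in both genotypes, and the log2 differences were 0.18 ± 0.18 (SE) in Fgf10+/- (adjusted p = 0.531) and 0.05 ± 0.18 (SE) in wild type (adjusted p = 0.898). Their 95% intervals ran from -0.20 to 0.55 in Fgf10+/- and from -0.33 to 0.42 in wild type. In Fgf10+/- lungs all 10 features of Tgfb1 were higher in hyperoxia, by 0.178 to 0.458, and 2 of them were called when features were tested one by one; the mean of the features was called too (adjusted p = 0.0242). In wild-type lungs the features ranged from -0.288 to 0.141.

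The activin subunit genes were noisier. Inhbb, which encodes the beta B subunit, averaged 7.93 ± 0.28 in hyperoxia and 6.75 ± 0.80 in normoxia in Fgf10+/- lungs (SD, n = 4 each; log2 difference 1.19, SE 0.39, adjusted p = 0.0373), and the groups overlapped through normoxia replicate 1. Its call was lost when any one of the 8 arrays other than normoxia replicate 1 was left out (adjusted p between 0.0536 and 0.112). It was also lost with a covariate for sex and in a fit to only the groups compared (adjusted p up to 0.0634). In wild-type lungs the difference of Inhbb was 0.42 ± 0.39 (SE; adjusted p = 0.521), and 0.068 without normoxia replicate 4, the array with the muscle markers (adjusted p = 0.93). Inhba, the beta A subunit, did not pass in either genotype (-0.30 and -0.29), with 95% intervals of -0.98 to 0.38 and -0.97 to 0.40.

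Of the 6 BMP ligand genes, Bmp2 and Bmp3 rose and Bmp5 fell in Fgf10+/- lungs, and Bmp4 fell in wild-type lungs. Bmp4, a ligand of the distal tips of the branching lung, had 10.57, 10.89, 10.67 and 11.09 in wild-type hyperoxia, against 11.33, 11.46, 11.22 and 11.89 in wild-type normoxia. In Fgf10+/- lungs Bmp4 had 11.04, 11.28, 11.49 and 11.21 in hyperoxia, against 10.85, 11.82, 11.52 and 11.87 in normoxia. The wild-type groups did not overlap, while in Fgf10+/- lungs normoxia replicate 1 was the lowest of all 8 arrays. The log2 difference of Bmp4 was -0.67 ± 0.21 (SE) in wild type (adjusted p = 0.0402) and -0.26 ± 0.21 (SE) in Fgf10+/- (adjusted p = 0.44). The wild-type call was lost without hyperoxia replicate 1, 2 or 3 or normoxia replicate 1, 2 or 4 (adjusted p between 0.0526 and 0.118, the highest without normoxia replicate 4) and with the mean of both features (0.147). Without normoxia replicate 1 the Fgf10+/- difference of Bmp4 was -0.48 (0.0666).

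Bmp2, a ligand that acts in epithelium, vessels and bone, had 7.15, 7.17, 7.31 and 7.87 in Fgf10+/- hyperoxia, against 6.99, 6.69, 6.77 and 6.85 in Fgf10+/- normoxia. In wild-type lungs Bmp2 had 7.85, 7.88, 8.01 and 7.58 in hyperoxia, against 7.66, 7.81, 7.60 and 7.17 in normoxia. The 4 Fgf10+/- normoxia arrays were below every other array of the series, while the wild-type groups overlapped. The log2 difference was 0.55 ± 0.17 (SE) in Fgf10+/- (adjusted p = 0.0298) and 0.27 ± 0.17 (SE) in wild type (adjusted p = 0.316). The Fgf10+/- call of Bmp2 was lost without hyperoxia replicate 3 or 4 or normoxia replicate 2, 3 or 4 (adjusted p between 0.0506 and 0.08). Hyperoxia replicate 4, the array with the raised cardiac and mesothelial markers, had the highest Bmp2 value of its group, and without it the difference was 0.39 (adjusted p = 0.08). The wild-type difference of Bmp2 was 0.14 without normoxia replicate 4. The Fgf10+/- call was also lost in a fit to only the groups compared (0.0672) and with the replicate number as a block (0.0585).

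Bmp5, a ligand of the mesenchyme, had 5.84, 5.67, 5.58 and 5.75 in Fgf10+/- hyperoxia, against 6.34, 6.03, 6.56 and 6.75 in Fgf10+/- normoxia. In wild-type lungs Bmp5 had 6.13, 6.09, 6.44 and 6.64 in hyperoxia, against 6.23, 6.37, 5.63 and 6.36 in normoxia. All 4 Fgf10+/- hyperoxia arrays were below the normoxia arrays, whereas the wild-type groups overlapped. The log2 difference was -0.71 ± 0.19 (SE) in Fgf10+/- (adjusted p = 0.014) and 0.18 ± 0.19 (SE) in wild type (adjusted p = 0.584). Bmp3, which opposes other BMPs in bone, averaged 7.86 ± 0.14 in hyperoxia and 7.15 ± 0.35 in normoxia in Fgf10+/- lungs (SD, n = 4 each; 0.71, SE 0.21, adjusted p = 0.0255); the call was lost without hyperoxia replicate 2 (0.0695) or normoxia replicate 1 (0.075). In wild-type lungs Bmp3 differed by 0.57 ± 0.21 (SE; adjusted p = 0.0819), and it was called without hyperoxia replicate 4 (0.74, adjusted p = 0.0254) or normoxia replicate 4 (0.71, 0.0391). Bmp6 and Bmp7 passed in neither genotype, with differences of -0.20 and 0.16 in Fgf10+/- and -0.07 and 0.19 in wild type.

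**Figure D2:**
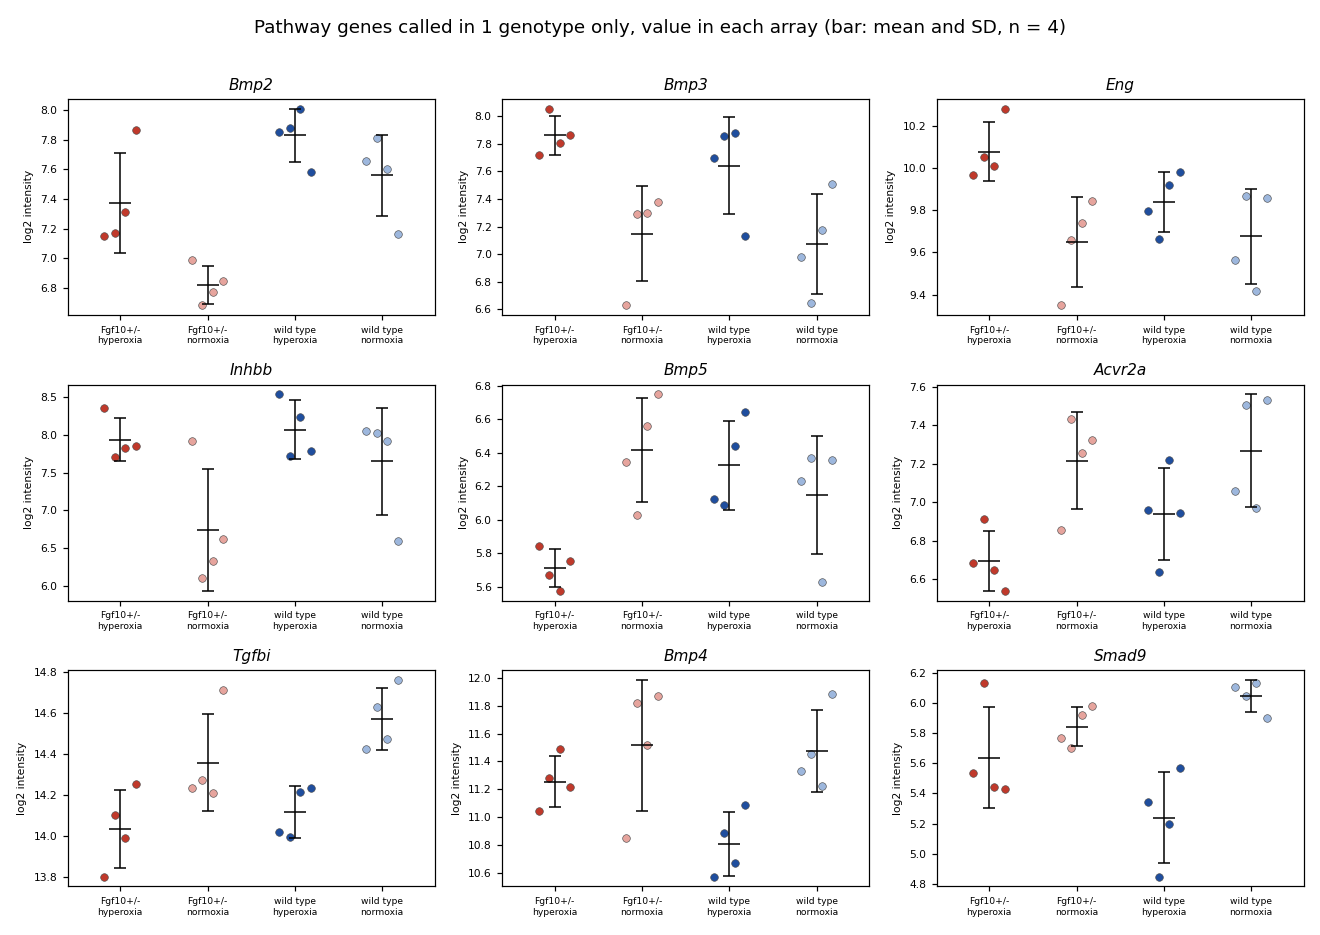
Log2 intensity in each of the 16 arrays for the 9 pathway genes called in only 1 genotype; points are arrays, and bars give the mean and SD of 4 arrays. In the Bmp2 panel the 4 Fgf10+/- normoxia arrays lie below all others, and in the Smad9 panel the 4 wild-type hyperoxia arrays lie below the wild-type normoxia arrays while Fgf10+/- hyperoxia replicate 2 lies above the other 3 of its group.

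Extracellular BMP antagonists among the members did not pass in either genotype. Bmper, which binds BMPs and modulates them, differed by -0.14 in Fgf10+/- and 0.29 in wild type. Noggin (Nog) differed by 0.03 and -0.12, and Gremlin 1 (Grem1) by -0.51 and -0.47, both near the array median in intensity. The wild-type difference of Grem1 was -0.96 without hyperoxia replicate 2 (adjusted p = 0.0599) and -0.18 without normoxia replicate 4. The 95% interval of Grem1 in Fgf10+/- ran from -1.43 to 0.40, so a change of either sign could not be told from none at this spread.

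In the group of latent binding proteins and matrix genes, Bmp1 and Ltbp3 fell in both genotypes and Tgfbi fell in wild-type lungs. Bmp1 is not a BMP but a metalloprotease that trims procollagens and cuts latent TGF-beta binding protein and chordin. It had 11.21, 11.31, 11.36 and 11.48 in Fgf10+/- hyperoxia, against 12.06, 12.13, 11.89 and 12.19 in Fgf10+/- normoxia, and in wild-type lungs 11.39, 11.37, 11.43 and 11.46 in hyperoxia, against 11.88, 12.04, 11.85 and 12.11 in normoxia. No hyperoxia array of Bmp1 reached a normoxia array of its genotype. It was 1.66-fold lower in Fgf10+/- hyperoxia (log2 difference -0.73, SE 0.09, adjusted p = 9.57e-05), the smallest p of the 45 genes there, and 1.47-fold lower in wild type (-0.56, SE 0.09, adjusted p = 0.000892). All 3 features of Bmp1 were lower in both genotypes, 1 of them past the threshold, and the wild-type mean over the 3 features was -0.32 with an adjusted p of 0.0545.

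Ltbp3, which helps fold and secrete latent TGF-beta, averaged 11.37 ± 0.09 in hyperoxia and 11.88 ± 0.18 in normoxia in Fgf10+/- lungs (SD, n = 4 each; -0.52, SE 0.15, adjusted p = 0.0216), and 11.41 ± 0.16 in wild-type hyperoxia and 11.88 ± 0.33 in wild-type normoxia (-0.46, SE 0.15, adjusted p = 0.0439). The Fgf10+/- call of Ltbp3 was lost without hyperoxia replicate 1 or 2 or normoxia replicate 2 or 4 (adjusted p between 0.0506 and 0.0662). Its wild-type call was lost without hyperoxia replicate 1, 2 or 3 or normoxia replicate 2 or 4 (between 0.0718 and 0.128). The wild-type call of Ltbp3 was also lost with array weights and in a fit to only the groups compared (up to 0.118). Tgfbi, a TGF-beta-induced matrix protein and one of the brightest members, averaged 14.12 ± 0.13 in hyperoxia and 14.57 ± 0.15 in normoxia in wild-type lungs (-0.45, SE 0.13, adjusted p = 0.0279), without overlap; the call was lost without hyperoxia replicate 1 or 2 or normoxia replicate 2 or 4 (between 0.0675 and 0.0817). In Fgf10+/- lungs Tgfbi differed by -0.32 ± 0.13 (SE; adjusted p = 0.101). Ltbp1, Ltbp2 and Ltbp4, which bind latent TGF-beta or elastic fibres, did not pass; the difference of Ltbp1 was -0.57 ± 0.20 (SE) in Fgf10+/- (adjusted p = 0.0533) and -0.43 ± 0.20 (SE) in wild type (adjusted p = 0.154), where its groups did not overlap. Ltbp1 was called lower in Fgf10+/- without hyperoxia replicate 4 (-0.77, adjusted p = 0.00471) or normoxia replicate 3 (-0.69, 0.0283). The brightest feature of Ltbp4 differed by 0.10 in Fgf10+/- and -0.14 in wild type. When features were tested one by one, 1 of its 3 features was called lower in each genotype. The lowest feature differed by -0.535 in Fgf10+/- and -0.579 in wild type.

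Of 12 receptor and co-receptor genes, Bmpr1b and Bmpr2 rose and Bmpr1a fell in both genotypes. Bmpr1a encodes the main type I receptor for BMP2 and BMP4. It had 8.80, 8.92, 8.76 and 8.58 in Fgf10+/- hyperoxia, against 9.38, 9.48, 9.38 and 9.51 in Fgf10+/- normoxia, and in wild-type lungs 8.85, 8.55, 8.91 and 8.98 in hyperoxia, against 9.32, 9.44, 9.34 and 9.23 in normoxia. Every hyperoxia array was below every normoxia array of the series. Bmpr1a was 1.59-fold lower in Fgf10+/- (log2 difference -0.67, SE 0.11, adjusted p = 0.000393) and 1.42-fold lower in wild type (-0.51, SE 0.11, adjusted p = 0.00364).

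Bmpr1b, the other BMP type I receptor of this pair, had 6.02, 5.86, 6.02 and 5.54 in Fgf10+/- hyperoxia, against 4.86, 5.18, 4.73 and 4.88 in Fgf10+/- normoxia, and in wild-type lungs 5.96, 6.22, 5.82 and 5.68 in hyperoxia, against 5.23, 5.12, 4.81 and 5.30 in normoxia. Its normoxia values lay less than 1 log2 unit above the array median of 4.50, so Bmpr1b was dim there, and all 8 hyperoxia arrays were above all 8 normoxia arrays. It was 1.93-fold higher in Fgf10+/- (log2 difference 0.95, SE 0.15, adjusted p = 0.000508) and 1.75-fold higher in wild type (0.81, SE 0.15, adjusted p = 0.00219). Its 2 features were higher in both genotypes, and 1 of the 2 was called in each when tested one by one.

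Bmpr2, the type II BMP receptor whose mutations in humans cause heritable pulmonary arterial hypertension, had 9.66, 10.57, 9.86 and 9.89 in Fgf10+/- hyperoxia, against 9.03, 9.15, 9.0 and 9.33 in Fgf10+/- normoxia. In wild-type lungs Bmpr2 had 9.97, 9.57, 9.64 and 9.97 in hyperoxia, against 9.14, 8.997, 8.70 and 8.68 in normoxia. The hyperoxia arrays were again all above the normoxia arrays, with Fgf10+/- hyperoxia replicate 2 the highest. Bmpr2 was 1.82-fold higher in Fgf10+/- (log2 difference 0.86, SE 0.18, adjusted p = 0.00314) and 1.88-fold higher in wild type (0.91, SE 0.18, adjusted p = 0.00293). Intensities of different features are not levels that can be compared between genes, so the 3 receptors are compared by their own differences alone.

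**Figure D3:**
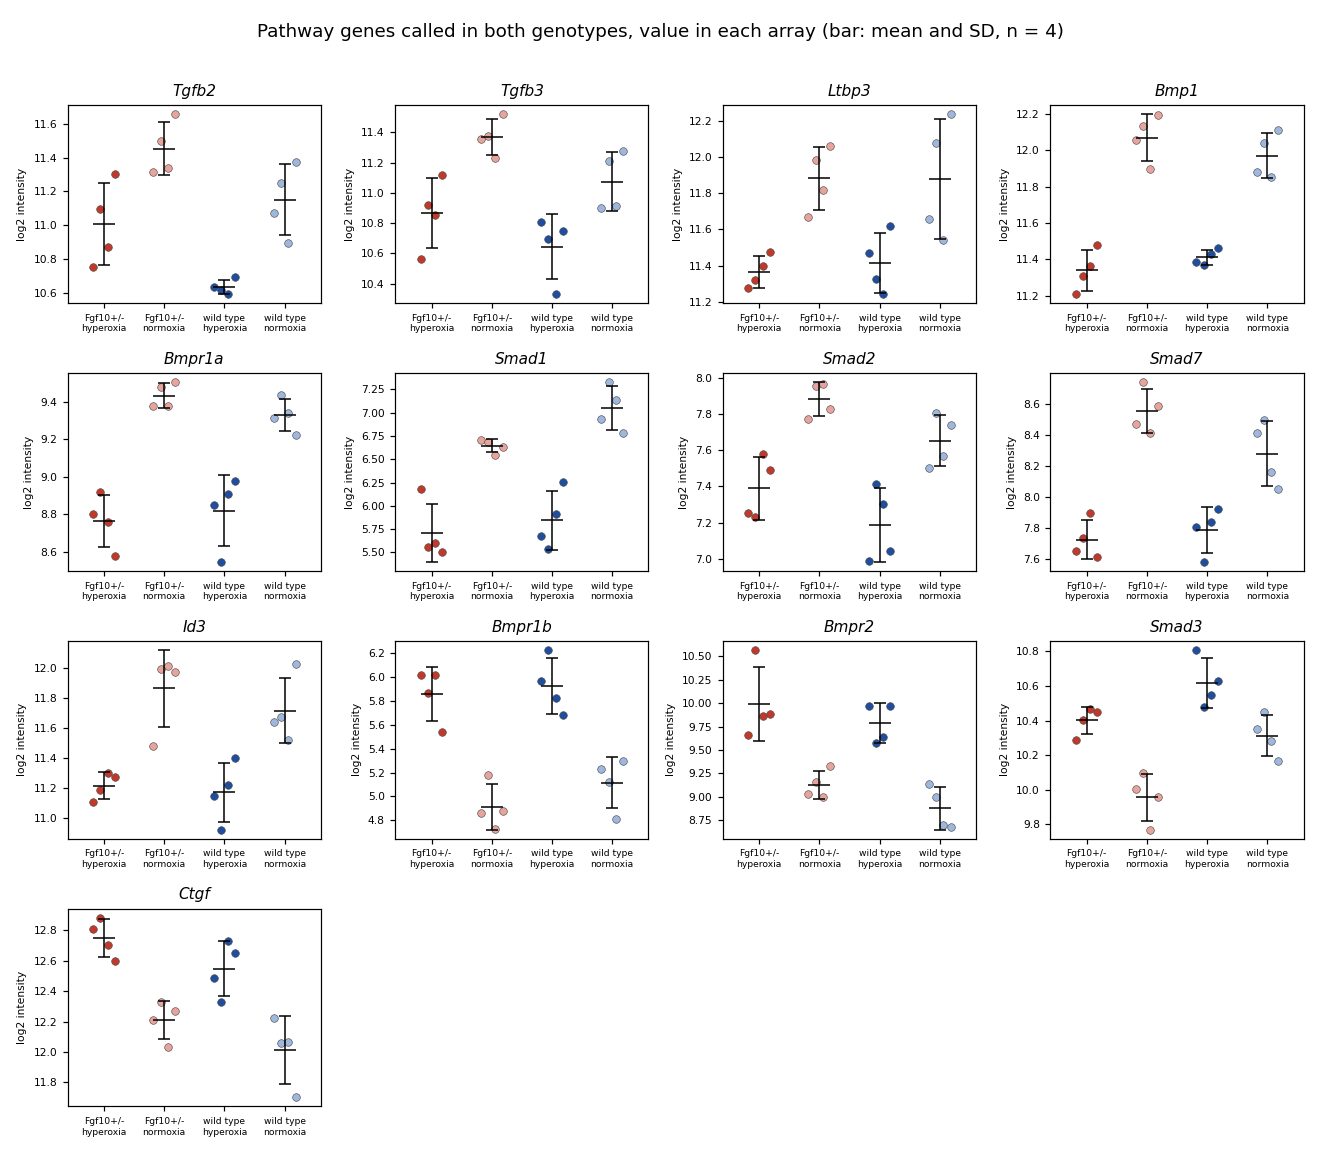
Log2 intensity in each array for pathway genes called in the same direction in both genotypes; points are arrays, and bars give the mean and SD of 4 arrays. Bmpr2, Bmpr1b and Ctgf lie higher and Smad1, Bmp1 and Smad7 lower in hyperoxia than in normoxia in both genotypes, with no overlap between the oxygen levels of a genotype.

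Endoglin (Eng), a TGF-beta co-receptor of endothelium mutated in human hereditary haemorrhagic telangiectasia, averaged 10.08 ± 0.14 in hyperoxia and 9.65 ± 0.21 in normoxia in Fgf10+/- lungs (SD, n = 4 each; 0.43, SE 0.13, adjusted p = 0.0321). Its call was lost without hyperoxia replicate 2, 3 or 4 or normoxia replicate 1 or 2 (adjusted p between 0.0502 and 0.0935), and in wild-type lungs it differed by 0.16 ± 0.13 (SE; adjusted p = 0.467). The Fgf10+/- call of Eng was also lost in a fit to only the groups compared (0.07). The activin type II receptor gene Acvr2a averaged 6.70 ± 0.16 in hyperoxia and 7.22 ± 0.25 in normoxia in Fgf10+/- lungs (-0.52, SE 0.17, adjusted p = 0.0358), with overlapping groups; its call was lost in 3 of 10 alternatives and without hyperoxia replicate 1, 3 or 4 or normoxia replicate 2, 3 or 4 (between 0.0706 and 0.102). The TGF-beta receptor genes Tgfbr1 and Tgfbr2 differed by 0.05 and 0.11 in Fgf10+/- and by 0.02 and -0.03 in wild type and did not pass, with 95% intervals in Fgf10+/- of -0.23 to 0.32 and -0.11 to 0.33. The others without a call were Tgfbr3, Acvr1, Acvr1b, Acvr2b and Acvrl1, whose differences ran from -0.16 to 0.23; Acvr1b was called higher in wild type without hyperoxia replicate 2 (0.29, adjusted p = 0.032).

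Among the 8 SMAD genes, Smad1, Smad2 and Smad7 fell and Smad3 rose in both genotypes, and Smad9 fell in wild-type lungs. Smad1, a transducer of BMP signals, had 6.18, 5.55, 5.60 and 5.51 in Fgf10+/- hyperoxia, against 6.70, 6.69, 6.55 and 6.63 in Fgf10+/- normoxia. In wild-type lungs Smad1 had 5.68, 5.53, 5.91 and 6.25 in hyperoxia, against 6.94, 7.33, 7.14 and 6.79 in normoxia. All hyperoxia arrays were below the normoxia arrays, with Fgf10+/- hyperoxia replicate 1 above the other 3 of its group. Smad1 was 1.91-fold lower in Fgf10+/- (log2 difference -0.93, SE 0.18, adjusted p = 0.00155) and 2.3-fold lower in wild type (-1.20, SE 0.18, adjusted p = 0.000347), the largest fall of the 45 genes in both. Of its 3 features, 2 were called lower in Fgf10+/- and a dim one differed by 0.62; in wild type 1 of the 3 was called lower. The mean of the 3 features was not called in Fgf10+/- (-0.31, adjusted p = 0.165).

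Smad9, another BMP transducer, had 5.34, 4.85, 5.20 and 5.57 in wild-type hyperoxia, against 6.11, 6.05, 6.14 and 5.90 in wild-type normoxia. In Fgf10+/- lungs Smad9 had 5.54, 6.14, 5.44 and 5.43 in hyperoxia, against 5.77, 5.70, 5.92 and 5.98 in normoxia. In wild type the groups were apart; in Fgf10+/-, hyperoxia replicate 2 was the highest of 8 arrays and the other 3 hyperoxia arrays were below all normoxia arrays. The log2 difference was -0.81 ± 0.17 (SE) in wild type (adjusted p = 0.00394) and -0.21 ± 0.17 (SE) in Fgf10+/- (adjusted p = 0.435). Without hyperoxia replicate 2 the Fgf10+/- difference of Smad9 was -0.37 (adjusted p = 0.0908). Smad5, which acts in parallel with them, differed by -0.13 ± 0.10 (SE) in Fgf10+/- (adjusted p = 0.383) and 0.01 ± 0.10 (SE) in wild type (adjusted p = 0.958).

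Smad2 and Smad3, the transducers of TGF-beta and activin, moved in opposite directions. Smad2 had 7.25, 7.23, 7.58 and 7.49 in Fgf10+/- hyperoxia, against 7.77, 7.96, 7.97 and 7.83 in Fgf10+/- normoxia, and in wild-type lungs 6.99, 7.42, 7.30 and 7.04 in hyperoxia, against 7.50, 7.81, 7.57 and 7.74 in normoxia. The groups did not overlap, and the log2 differences were -0.49 ± 0.12 (SE) in Fgf10+/- (adjusted p = 0.00849) and -0.47 ± 0.12 (SE) in wild type (adjusted p = 0.0144). Smad3 had 10.29, 10.40, 10.46 and 10.45 in Fgf10+/- hyperoxia, against 10.003, 10.09, 9.77 and 9.96 in Fgf10+/- normoxia, and in wild-type lungs 10.81, 10.48, 10.55 and 10.63 in hyperoxia, against 10.35, 10.45, 10.28 and 10.17 in normoxia. Hyperoxia arrays were the higher ones in both, by a narrow margin in wild type, and the log2 differences were 0.45 ± 0.10 (SE) in Fgf10+/- (adjusted p = 0.00513) and 0.31 ± 0.10 (SE) in wild type (adjusted p = 0.0481). Tested one by one, 2 of the 2 features of Smad3 were called higher in Fgf10+/- and 0 in wild type. The wild-type call of Smad3 was lost in 7 of 10 alternatives, the replicate block among them (adjusted p = 0.0701), and without hyperoxia replicate 1, 3 or 4 or normoxia replicate 1, 3 or 4 (between 0.0682 and 0.144).

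Smad7, an inhibitory SMAD that TGF-beta itself induces, had 7.65, 7.73, 7.89 and 7.61 in Fgf10+/- hyperoxia, against 8.47, 8.74, 8.41 and 8.59 in Fgf10+/- normoxia. In wild-type lungs Smad7 had 7.80, 7.58, 7.84 and 7.92 in hyperoxia, against 8.41, 8.496, 8.16 and 8.05 in normoxia. The groups were apart in both genotypes, more widely in Fgf10+/-. Smad7 was 1.78-fold lower in Fgf10+/- (log2 difference -0.83, SE 0.12, adjusted p = 0.000217) and 1.41-fold lower in wild type (-0.49, SE 0.12, adjusted p = 0.0104). Smad6, the inhibitory SMAD of the BMP arm, differed by 0.45 ± 0.20 (SE) in Fgf10+/- (adjusted p = 0.13) and 0.45 ± 0.20 (SE) in wild type (adjusted p = 0.147), and the shared partner Smad4 by 0.08 and 0.16, none of which passed.

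Of 5 target and co-regulator genes, Ctgf rose and Id3 fell in both genotypes, and Id1, Id4 and Skil passed in neither. Ctgf (current symbol Ccn2), a matricellular gene induced by TGF-beta, had 12.81, 12.88, 12.70 and 12.60 in Fgf10+/- hyperoxia, against 12.21, 12.33, 12.04 and 12.27 in Fgf10+/- normoxia. In wild-type lungs Ctgf had 12.48, 12.33, 12.73 and 12.65 in hyperoxia, against 12.23, 12.06, 12.07 and 11.70 in normoxia. The hyperoxia arrays were above the normoxia arrays in both genotypes. Ctgf was 1.45-fold higher in Fgf10+/- (log2 difference 0.54, SE 0.13, adjusted p = 0.00654) and 1.45-fold higher in wild type (0.54, SE 0.13, adjusted p = 0.00828).

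Id3, an inhibitor of differentiation induced by BMP signals, had 11.10, 11.18, 11.30 and 11.27 in Fgf10+/- hyperoxia, against 11.48, 11.99, 12.01 and 11.97 in Fgf10+/- normoxia, and in wild-type lungs 11.14, 10.92, 11.22 and 11.40 in hyperoxia, against 11.64, 11.67, 11.52 and 12.02 in normoxia. No array of one oxygen level crossed into the other, although Fgf10+/- normoxia replicate 1 lay below the other 3 of its group. The log2 differences were -0.65 ± 0.14 (SE) in Fgf10+/- (adjusted p = 0.00449) and -0.54 ± 0.14 (SE) in wild type (adjusted p = 0.0162), where the call was lost without hyperoxia replicate 2 (0.0556) or normoxia replicate 4 (0.0531). Id1, its close relative and another BMP target, had 11.53, 11.66, 11.62 and 11.35 in Fgf10+/- hyperoxia, against 11.59, 11.02, 11.37 and 11.31 in Fgf10+/- normoxia, and in wild-type lungs 12.07, 11.35, 11.82 and 11.66 in hyperoxia, against 11.59, 11.60, 11.72 and 10.71 in normoxia. The groups of Id1 overlapped in both, and wild-type normoxia replicate 4 was the lowest of all 16 arrays. The log2 differences of Id1 were 0.22 ± 0.21 (SE) in Fgf10+/- (adjusted p = 0.523) and 0.32 ± 0.21 (SE) in wild type (adjusted p = 0.342). Without normoxia replicate 4 the wild-type difference of Id1 was 0.088 (adjusted p = 0.788). Id4 and Skil, a SMAD co-repressor, differed by 0.06 and -0.20 in Fgf10+/- and by 0.11 and -0.08 in wild type.

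Between the genotypes, no pathway gene passed at either oxygen level. In normoxia 8 of 45 genes had an unadjusted p under 0.05, where 12.9% of all genes did and 0.719% were called; in hyperoxia it was also 8, where 9.02% of all genes did and 0.412% were called. Groups did not overlap in 5 of the 45 genes in normoxia (7.53% of all genes) and in 5 in hyperoxia (5.99%). The smallest p in normoxia belonged to Bmp2, which had 6.99, 6.69, 6.77 and 6.85 in Fgf10+/- and 7.66, 7.81, 7.60 and 7.17 in wild type, a difference of -0.73 ± 0.17 (SE; adjusted p = 0.0671). The groups did not overlap, and the call appeared in 3 alternative analyses (adjusted p between 0.0169 and 0.0371). It also appeared without wild-type normoxia replicate 4 (-0.86, adjusted p = 0.0244), the array with the muscle markers and the lowest Bmp2 value of its group, and without Fgf10+/- hyperoxia replicate 4 (adjusted p = 0.0285).

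Tgfbr3, the co-receptor betaglycan, had 9.11, 9.05, 9.01 and 9.23 in Fgf10+/- normoxia and 9.53, 9.51, 9.27 and 9.50 in wild-type normoxia, a difference of -0.35 ± 0.10 (SE; adjusted p = 0.117). Smad3 had 10.003, 10.09, 9.77 and 9.96 in Fgf10+/- normoxia and 10.35, 10.45, 10.28 and 10.17 in wild-type normoxia, a difference of -0.36 ± 0.10 (SE; adjusted p = 0.13). Both genes were lower in every Fgf10+/- array than in every wild-type array. With trended and robust variance estimates Smad3 reached an adjusted p of 0.0413, and the other alternatives left it uncalled.

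In hyperoxia, the smallest p between Fgf10+/- and wild type belonged to Bmp5 (log2 difference -0.61, SE 0.19, adjusted p = 0.277), Tgfb2 (0.37, SE 0.13, adjusted p = 0.378) and Bmp2 (-0.45, SE 0.17, adjusted p = 0.411), and none passed. The Bmp5 and Tgfb2 values are those given above and do not overlap between the genotypes, while those of Bmp2 do. The difference between the genotypes' hyperoxia responses was largest by p in Bmp5 (-0.89, SE 0.27, adjusted p = 0.618), Smad9 (0.60, SE 0.24, adjusted p = 0.734) and Smad7 (-0.34, SE 0.17, adjusted p = 0.776), and 2 of 45 genes had an unadjusted p under 0.05, where 6.62% of all genes did. The 95% intervals of these differences, -1.46 to -0.31 for Bmp5 and 0.09 to 1.11 for Smad9, are wide, as 4 arrays a group allow.

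Marker lists also differed between the genotypes. In normoxia, the 6 dividing-cell markers had a mean level of 9.83 to 9.94 in Fgf10+/- and 9.06 to 9.51 in wild type; 1 of 6 was called higher and all 6 had an unadjusted p under 0.05. In hyperoxia their level was 7.69 to 8.40 in Fgf10+/- and 6.53 to 7.31 in wild type, and 4 of 6 were called higher. Alveolar epithelial markers had 2 of 8 called lower in normoxia (12.49 to 12.61 in Fgf10+/- and 12.84 to 12.97 in wild type) and 2 of 8 in hyperoxia (12.94 to 13.02 in Fgf10+/- and 13.04 to 13.22 in wild type), and cardiac muscle markers 1 of 5 in normoxia (9.60 to 10.17 in Fgf10+/- and 10.19 to 10.61 in wild type). Of 8 matrix fibroblast markers 0 were called at either oxygen level. In normoxia their differences ran from 0.21 to 0.591, and 5 of 8 had an unadjusted p under 0.05 (12.9% of all genes). In hyperoxia they ran from -0.061 to 0.709, and 3 of 8 did (9.02%). Smooth muscle and myofibroblast markers had 2 of 8 in normoxia and 4 of 8 in hyperoxia, with 0 called. The part of these markers in the genotype differences of Bmp2, Tgfbr3, Smad3, Bmp5 or Tgfb2 was not tested.

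**Figure D4:**
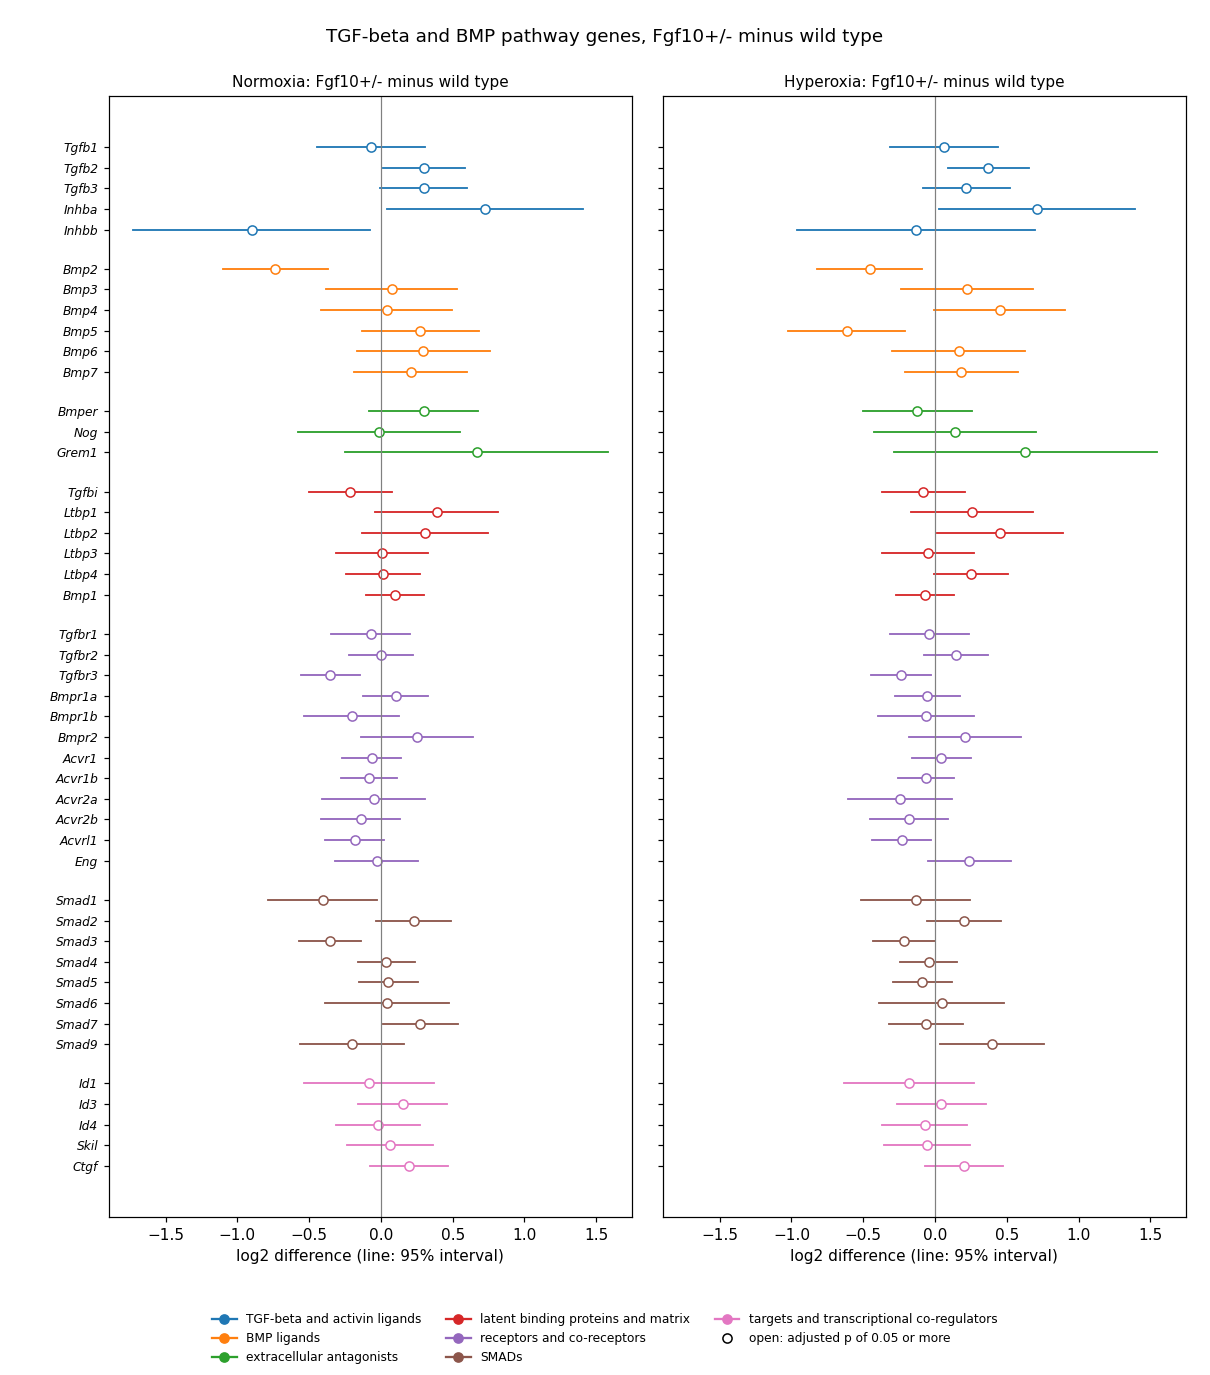
Log2 difference of Fgf10+/- minus wild type for each of the 45 pathway genes in normoxia (left) and hyperoxia (right); points are differences of group means of 4 arrays, lines their 95% intervals, and open points have an adjusted p of 0.05 or more. All points are open, and Bmp2 and Inhbb lie farthest left in normoxia.

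Another 60 genes of the pathway were listed beside the members, and 57 of them were tested. In Fgf10+/- lungs 5 rose and 7 fell in hyperoxia, 21.1% of the 57, and in wild-type lungs 3 rose and 8 fell, 19.3%, where 23.8% and 19.1% of all genes were called. Twsg1, which modulates BMP binding to chordin, fell in both genotypes (-1.09, SE 0.11, adjusted p = 1.36e-05 in Fgf10+/-, and -1.14, SE 0.11, adjusted p = 1.64e-05 in wild type). Gdf15, a divergent ligand of the superfamily induced by cell stress, rose in both (1.82, SE 0.22, adjusted p = 6.14e-05 in Fgf10+/-, and 1.37, SE 0.22, adjusted p = 0.000693 in wild type). Lrrc32, which holds latent TGF-beta on cell surfaces, rose (1.27, SE 0.18, adjusted p = 0.000203 in Fgf10+/-, and 0.76, SE 0.18, adjusted p = 0.00948 in wild type), as did the activin antagonist follistatin, Fst (1.91, SE 0.29, adjusted p = 0.000318 in Fgf10+/-, and 1.24, SE 0.29, adjusted p = 0.0082 in wild type). Fstl1, a secreted follistatin-like protein, fell (-0.53, SE 0.10, adjusted p = 0.00161 in Fgf10+/-, and -0.70, SE 0.10, adjusted p = 0.000318 in wild type), and so did Snai2, a transcription factor induced by TGF-beta (-0.76, SE 0.12, adjusted p = 0.000343 in Fgf10+/-, and -0.68, SE 0.12, adjusted p = 0.0011 in wild type). By role, the number called in Fgf10+/- and in wild type was 4 and 3 of 8 other targets, 4 and 3 of 11 other antagonists, 3 and 3 of 15 other ligands, 1 and 1 of 6 other receptors and co-receptors, 0 and 1 of 7 genes that activate latent TGF-beta, and 0 and 0 of 10 other intracellular regulators.

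Markers of dividing cells fell in hyperoxia in both genotypes, 6 of 6 in each, with a mean level of 7.69 to 8.40 in Fgf10+/- hyperoxia and 9.83 to 9.94 in Fgf10+/- normoxia, and of 6.53 to 7.31 in wild-type hyperoxia and 9.06 to 9.51 in wild-type normoxia. Matrix fibroblast markers fell in 3 of 8 genes in Fgf10+/- (mean level 12.08 to 12.61 in hyperoxia and 12.73 to 12.99 in normoxia) and in 4 of 8 in wild type (11.78 to 12.25 in hyperoxia and 12.44 to 12.87 in normoxia). Endothelial markers fell in 3 of 8 genes in Fgf10+/- (10.36 to 10.66 in hyperoxia and 10.48 to 10.71 in normoxia) and 2 of 8 in wild type (10.30 to 10.55 in hyperoxia and 10.43 to 10.68 in normoxia); Pecam1 fell most (-0.69 in Fgf10+/- and -0.97 in wild type), and none rose. Alveolar epithelial markers rose in 4 of 8 genes in Fgf10+/- (12.94 to 13.02 in hyperoxia and 12.49 to 12.61 in normoxia) and in 3 of 8 in wild type (13.04 to 13.22 in hyperoxia and 12.84 to 12.97 in normoxia). Of 8 smooth muscle and myofibroblast markers, 2 rose and 1 fell in Fgf10+/- (10.85 to 11.16 in hyperoxia and 10.90 to 11.05 in normoxia) and 1 rose and 2 fell in wild type (10.73 to 10.82 in hyperoxia and 10.74 to 11.03 in normoxia). Among them, Cnn1 rose (0.88 in Fgf10+/- and 0.77 in wild type) and Pdgfra fell (-1.49 in Fgf10+/- and -1.45 in wild type) in both genotypes. No marker list was near the lower end of the scale except skeletal muscle and brown fat, and the part of these shifts in the differences of the pathway genes was not tested.

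**Figure D5:**
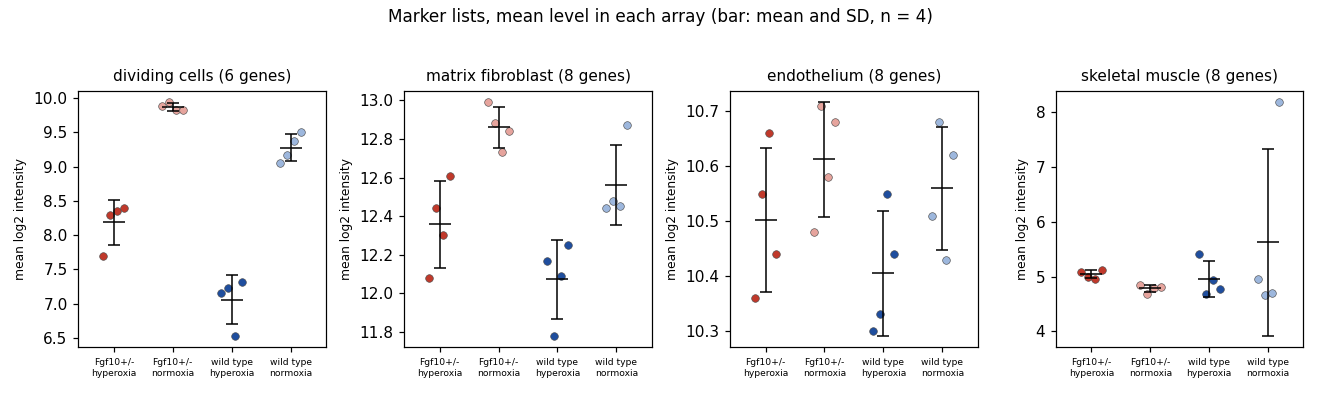
Mean log2 intensity over the genes of 4 marker lists in each array; points are arrays, and bars give the mean and SD of 4 arrays. Dividing-cell and matrix fibroblast levels are lower in hyperoxia than in normoxia in both genotypes, endothelial levels overlap, and wild-type normoxia replicate 4 stands alone at 8.18 in the skeletal muscle panel.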

How the data were processed

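The deposited series table holds log2 intensities of 62976 features on 16 arrays, used as the authors deposited them. Per the labels, total RNA was labelled with Cy3 in a one-colour kit. The labels used here do not say how arrays were scaled or background-corrected; array medians of 4.4996 to 4.50028 show that arrays were brought to a common scale. Features took gene symbols from the platform annotation, updated through RefSeq (GRCm38.p6). Of 31465 features with 1 symbol, those above the 25th percentile of their array in at least 4 arrays and without a missing value were kept, and the brightest stood for its gene (20166 genes).

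Group means of 16 arrays were fitted with limma 3.58.1 in R 4.3.3 (12 residual and 2.129 prior degrees of freedom), with Benjamini-Hochberg adjustment over all genes of a contrast and calls at an adjusted p under 0.05. The code was tested on simulated data. Per-array values are given for the 10 called members with the smallest p in each hyperoxia contrast, the 3 with the smallest p in the other contrasts, and Tgfb1, Tgfb2, Tgfb3, Bmp4, Ctgf and Id1. The members and lists were chosen with earlier results of these data known.

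Same-numbered arrays had residual correlations of -0.0293 to 0.0869, and the fit has no replicate block. A pairing by replicate number is thus not shown, but correlations this low do not exclude one. Alternatives changed the filter, the feature rule, the scaling, the variance model, array weights, the block, a covariate for sex (from Eif2s3y and Xist) and the arrays fitted, and left out each array in turn.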

Additional observations from a re-analysis of the deposited data

Results flagged for a closer look

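Within a group of 4 arrays, a value was picked out when its gap to the nearest other array, divided by the range of the group, passed Dixon's 95% critical value for 4 samples. This was met by 13 of 180 group values, where chance gives about 5%. Wild-type normoxia replicate 4 was low in Inhbb (6.59, with 7.91 to 8.05 in the other 3) and in Id1 (10.71, with 11.59 to 11.72), and it is the array with raised skeletal muscle markers.

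In Fgf10+/- hyperoxia, replicate 1 was high in Smad1 (6.18, others 5.51 to 5.60) and low in Acvr1 (10.04, others 10.28 to 10.30). Replicate 2 of that group was high in Smad9 (6.14, others 5.43 to 5.54), and replicate 3 in Id4 (7.72, others 7.25 to 7.32). In Fgf10+/- normoxia, replicate 1 was low in Bmp3 (6.63, others 7.29 to 7.38) and Id3 (11.48, others 11.97 to 12.01), and replicate 4 was high in Tgfbi (14.71, others 14.21 to 14.27). In wild-type hyperoxia, replicate 1 was high in Acvr1 (10.25, others 10.15 to 10.16) and replicate 2 in Grem1 (5.78, others 3.75 to 3.97). In wild-type normoxia, replicate 3 was low in Tgfbr3 (9.27, others 9.50 to 9.53) and Acvr1b (8.96, others 9.04 to 9.05).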

How the results depend on the processing

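Over the differences of the named members, 803 values kept their direction and side of the threshold under an alternative, 90 lost a call, 6 gained one and 4 changed sign. The higher calls in Fgf10+/- lungs, 8 in the analysis as reported, were 5 in a fit to only the groups compared. In the genotype comparison in normoxia, where no member passed, 1 was lower with a filter at the 50th percentile (Bmp2), 2 with trended and robust variance (Bmp2 and Smad3) and 1 with array weights (Bmp2). With 1 array left out in turn, the calls in Fgf10+/- hyperoxia ranged from 5 to 7 higher and from 7 to 11 lower, those in wild-type hyperoxia from 3 to 5 higher and from 7 to 12 lower, and those in the normoxia genotype comparison from 0 to 1 lower. Bmp4 in Fgf10+/- lungs turned from -0.26 to 0.158 with the mean of both features, and Tgfb1 in wild-type lungs from 0.05 to -0.041 with the mean of all features, to -0.031 without hyperoxia replicate 4 and to -0.082 without normoxia replicate 4 (range with 1 array left out -0.082 to 0.21). The cause was not tested.

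With the replicate block the calls were 7 higher and 13 lower in Fgf10+/- lungs and 3 higher and 13 lower in wild-type lungs, and 0 in the genotype comparisons and the interaction; Bmp2 (adjusted p = 0.0585) and Smad3 (0.0701) were the calls lost. Between the same oxygen levels, 4 of 8 normoxia arrays and 2 of 8 hyperoxia arrays correlated best with their own number in the other genotype. Rescaling the tested genes shifted the median of all genes by -0.0323 in Fgf10+/- and -0.0233 in wild-type lungs. With 4 arrays a group, small differences could not be told from none, and features near the array median of 4.50, such as Bmpr1b, Smad9, Nog and Grem1, are dim.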

Other observations

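Features of 1 gene did not always move together, and the feature chosen was the brightest. For Bmp4 in Fgf10+/- lungs the brightest feature differed by -0.26 between hyperoxia and normoxia and a dim one by 0.57, neither of them past the threshold. For Smad1 the 3 features ranged from -0.93 to 0.62 in Fgf10+/- and from -1.20 to 0.04 in wild-type lungs. For Ltbp4 the 3 features ranged from -0.535 to 0.304 in Fgf10+/- and from -0.579 to -0.113 in wild-type lungs. For Tgfb1 all 10 features were positive in Fgf10+/- lungs, with a median of 0.356, while the one that stands for the gene had the smallest difference of the 10.

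Airway epithelial markers rose in hyperoxia in 3 of 6 genes in each genotype, with a mean level of 10.65 to 11.01 in Fgf10+/- hyperoxia and 10.12 to 10.90 in Fgf10+/- normoxia, and of 10.83 to 11.27 in wild-type hyperoxia and 10.34 to 10.62 in wild-type normoxia. Cd109, a TGF-beta co-receptor outside the 45 genes and chosen after its values were seen, was the only one of 57 other pathway genes called between the genotypes in normoxia (0.88 ± 0.19 (SE), adjusted p = 0.049, limma).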
